A study of Mus musculus with 11 samples.

Results

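The genes described here are 34 genes that license, start and carry out DNA replication at the passage from G1 into S phase, together with genes that supply nucleotides and copy chromatin at the fork. They were taken by symbol from a list of genes under E2F control, and all 34 of them were found among the 17181 gene symbols of the expression table. Every one had a value above 1 FPKM in each of the 11 libraries, so all 34 were among the 13074 genes tested. FPKM count sequenced fragments per unit of transcript length and of library size, so levels can be set side by side between genes. The list has 10 licensing genes, 12 genes of helicase activation and the fork, 4 of nucleotide supply, 6 of chromatin copying, and 2 of fork-coupled degradation and repair.

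RNA was sequenced from tumours of 4T1, a mouse triple-negative mammary carcinoma line, grown subcutaneously in both flanks of NSG mice, which lack mature T, B and NK cells. Treatment began at about 100 mm3 of tumour volume and lasted 12 days in all groups, and the genotype is given as WT throughout. The vehicle group (n = 2 tumours) received sodium lactate and corn oil in DMSO, and its sample titles read untreated. The OPG-Fc group (n = 3) received OPG-Fc, a fusion protein that binds and blocks RANKL, at 10 mg/kg by intraperitoneal injection 3 times a week. The palbociclib group (n = 3) received palbociclib, an inhibitor of the cell-cycle kinases CDK4 and CDK6, at 30 mg/kg per day by mouth. The combination group (n = 3) received both agents at those doses. Which tumours shared a mouse is not stated in the labels, so p-values measure the spread between these tumours. The columns of combination 1 and 2 carry a common leading number in their names, and so do the columns of OPG-Fc 2 and 3, so each of these pairs may come from 1 mouse. With such libraries averaged, none of the 34 genes and no other gene passed limma's test in any comparison. The series title calls the model syngeneic, whereas the host named in its design text is the immunodeficient NSG strain.

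In dividing cells CDK4 and CDK6 phosphorylate the retinoblastoma protein, which then releases E2F factors from the promoters of S phase genes. Origins are licensed in G1, when ORC, CDC6 and CDT1 load the ring-shaped MCM2-7 helicase onto DNA, and geminin then blocks CDT1 so that each origin fires once. In S phase CDC45 and the GINS complex turn the loaded rings into active helicases, and polymerases, the PCNA clamp and its loader copy the strands. Palbociclib acts on the first of these steps, so this set of genes is a usual readout of the drug in tumour cells.

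The promoters of these genes are shown first because the list was drawn up as genes under E2F control, so the shares of E2F matches describe the list and test nothing. RefSeq windows of 300 bases (250 before and 50 after a transcription start, build GRCm38.p6) were matched by symbol to 29 of the 34 genes. No window was matched to Mcm4, Gins1, Gmnn, Gins2 or Pole. The E2F motif was searched as TTTCCCGC, TTTCGCGC, TTTGCCGC or TTTGGCGC on both strands. It was present in 14 of the 29 genes, or 48.3%, against 2.6% of all 27025 genes of the table and 2.26% of its 32851 windows. Of 25 mitosis genes with a window, 2 (8%) held it. The CHR element, TTTGAA, which mitotic promoters often carry, was the reverse. It was found in 13.8% of the replication genes, 68% of the mitosis genes and 20.2% of all genes (17.9% of windows). CCAAT was found in 69%, 80% and 41.1% of the same sets (37.4% of windows). A match is only a run of letters in the window and does not show that a factor binds there.

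Stretches that end at the base before the RefSeq start are printed for genes whose values differed in kind, chosen after their values were seen. Rfc3 had the highest difference between combination and OPG-Fc among the genes with an E2F match, Pola1 was among the lowest, and Mcm5 and Mcm6 had estimates near 0. Capitals mark the E2F matches, and all are written 5′ to 3′ in the direction of the gene. The Rfc3 stretch (chr5:151651209-151651238, minus strand) has 1 match that begins 10 bases before the start, and a further match overlaps the start itself. The Pola1 stretch (chrX:93632156-93632315, minus strand) has 1 match on the opposite strand that begins 138 bases before the start. The Mcm6 stretch (chr1:128359706-128359865, minus strand) has 3 matches, of which the first 2 overlap on opposite strands. The Mcm5 stretch (chr8:75109349-75109508, plus strand) has 2 overlapping matches on opposite strands.
Rfc3: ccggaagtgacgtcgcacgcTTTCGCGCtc
Pola1: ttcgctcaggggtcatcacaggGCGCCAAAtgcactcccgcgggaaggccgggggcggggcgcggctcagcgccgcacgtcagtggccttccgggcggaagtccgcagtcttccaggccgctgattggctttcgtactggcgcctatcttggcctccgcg
Mcm6: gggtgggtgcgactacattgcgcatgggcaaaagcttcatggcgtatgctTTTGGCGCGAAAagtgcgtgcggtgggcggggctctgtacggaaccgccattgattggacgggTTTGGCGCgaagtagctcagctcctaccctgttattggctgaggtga
Mcm5: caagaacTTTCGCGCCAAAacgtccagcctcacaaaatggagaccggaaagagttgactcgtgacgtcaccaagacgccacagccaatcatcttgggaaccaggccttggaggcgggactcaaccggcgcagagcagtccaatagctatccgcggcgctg

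One library, vehicle replicate 2, differed strongly from the others in its cell-type markers, and a mean over the vehicle libraries describes neither of them. The summed level of 12 epithelial markers was 58.99 FPKM in it against 3215.83 FPKM in vehicle 1, 2843.53 to 2988.59 in OPG-Fc, 3566.11 to 4161.80 in palbociclib and 3387.72 to 4101.85 in the combination. The 9 B and plasma cell markers summed to 7303.83 FPKM in vehicle 2 and 15.28 in vehicle 1, 15.89 to 818.04 in OPG-Fc, 1.48 to 1.64 in palbociclib and 2.63 to 18.51 in the combination. None of these markers was at 0 in all libraries of a group. The labelled epithelial cell type was thus near absent from vehicle 2 by its markers, and OPG-Fc 2 was the next richest in lymphoid transcripts. Every comparison with vehicle is given with vehicle 2 and without it, and the lone vehicle tumour is then assumed to vary like the other groups. In the 2 fits that keep only 1 vehicle library, the variance comes from the treated groups alone.

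All 34 genes were expressed in every tumour, from 2.96 FPKM for the origin-binding subunit gene Orc1 (palbociclib 2) to 290.17 FPKM for the clamp gene Pcna (combination 1). Outside vehicle 2 their levels varied little between tumours. Over the 10 libraries other than vehicle 2, the ratio of the highest to the lowest FPKM had a median of 1.74 over the 34 genes (from 1.30 for Ung to 2.20 for Rrm2), against 1.96 over all tested genes. That ratio was under 2 for 27 of the 34 genes, and for 52.0% of all tested genes. The tested genes include some below 1 FPKM in part of the libraries, where such ratios can be large. No genes of matched level were compared, so a narrow range is not shown to be particular to the 34. The summed FPKM of a library was not constant. It was 581247 and 609330 in vehicle, 576699 to 646150 in OPG-Fc, 651306 to 754480 in palbociclib and 704882 to 864670 in the combination. Separations between tumours are given below in FPKM and need not hold as shares of these sums. The share of all tested genes in which 1 group lay above or below all others was not counted.

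Tumours of the same group differed, and most of the 34 genes did so together. Palbociclib 3 was the highest of the 3 palbociclib tumours for 31 of the 34 genes, and combination 1 the highest of its group for 30. OPG-Fc 2 was the highest of its group for 25, and vehicle 2 the higher vehicle tumour for 27. Vehicle 2 was the highest of all 11 libraries for 17 genes. With it set aside, combination 1 was the highest of the remaining 10 for 24 genes. The same counts were not made over all tested genes, so they do not show a trait particular to the 34. The mean log2(FPKM + 1) over the 34 genes was 4.66 and 5.03 in vehicle, 4.73, 4.88 and 4.77 in OPG-Fc, 4.55, 4.59 and 4.93 in palbociclib, and 5.10, 4.77 and 4.74 in the combination. The 4 groups overlapped. These are bulk tumours, so fewer dividing cells and less RNA per cell cannot be told apart.

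**Figure D1:**
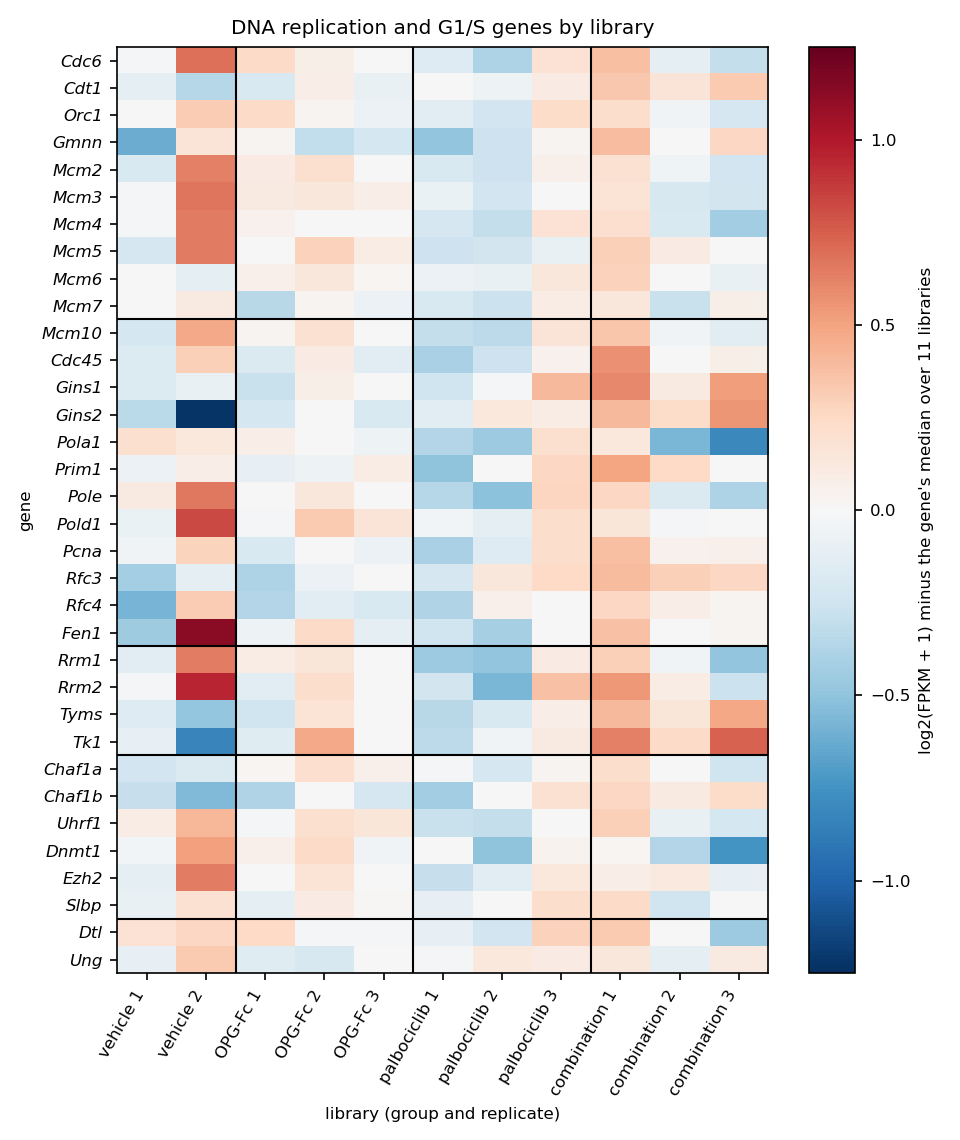
Heat map of log2(FPKM + 1) minus each gene's median over the 11 libraries, with the 34 genes as rows in order of role (horizontal lines) and the libraries as columns by group (vertical lines). Vehicle 2, palbociclib 3 and combination 1 stand out as columns in which most genes are high for their group, while Gins2 and Tk1 are low in vehicle 2.

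Among the licensing genes, Cdt1, the MCM loading factor, was at 30.91 and 25.92 FPKM in vehicle, 29.20, 35.61 and 31.33 in OPG-Fc, 33.48, 31.93 and 36.04 in palbociclib, and 42.50, 37.47 and 42.17 in the combination. In FPKM, all 3 combination tumours lay above all other tumours for Cdt1. Mcm6, a subunit of the helicase ring, was at 82.55 and 76.47 FPKM in vehicle, 86.56, 91.61 and 84.56 in OPG-Fc, 78.58, 77.98 and 91.47 in palbociclib, and 101.64, 82.96 and 77.50 in the combination. The OPG-Fc tumours lay above both vehicle tumours for Mcm6, and the other groups overlapped. The other ring subunits were highest in vehicle 2 in 4 of 5 cases, for example Mcm5 at 65.33 FPKM there against 34.27 to 50.90 in the other 10 libraries. Mcm7 was the exception, at 82.78 FPKM in vehicle 2 and 84.12 in combination 1. Cdc6, the other loading factor, was low throughout, from 4.19 to 7.85 FPKM outside vehicle 2 (9.95). Gmnn, which encodes geminin, was at 18.49 and 32.34 FPKM in vehicle, 23.19 to 29.60 in OPG-Fc, 20.20 to 29.69 in palbociclib and 28.90 to 38.01 in the combination.

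Among the fork genes, Gins2, a subunit of the GINS complex, differed most between groups. It was at 35.77 and 18.87 FPKM in vehicle, 38.73, 45.37 and 39.52 in OPG-Fc, 41.35, 49.69 and 48.48 in palbociclib, and 60.61, 53.50 and 66.93 in the combination. Its combination tumours lay above all others, and its vehicle tumours below all others. Pcna was at 217.34 and 272.54 FPKM in vehicle, 196.33, 223.95 and 212.92 in OPG-Fc, 169.38, 200.21 and 260.72 in palbociclib, and 290.17, 231.83 and 234.05 in the combination. The palbociclib tumours overlapped with every other group for Pcna. Rfc3, a subunit of the clamp loader, was at 28.02 and 34.93 FPKM in vehicle, 28.93, 36.03 and 38.00 in OPG-Fc, 32.64, 42.01 and 45.34 in palbociclib, and 50.26, 47.00 and 45.71 in the combination. In FPKM the combination tumours lay above all others for Rfc3, by a narrow margin between combination 3 (45.71) and palbociclib 3 (45.34). Pola1, the catalytic subunit of the priming polymerase, was at 15.23 and 14.45 FPKM in vehicle, 13.92, 13.13 and 12.50 in OPG-Fc, 9.97, 9.28 and 15.23 in palbociclib, and 14.51, 8.50 and 7.11 in the combination. Palbociclib 3 and combination 1 reached the vehicle level of Pola1, and the other tumours given palbociclib were below all those without it. Fen1, which trims Okazaki fragments, was at 47.62 FPKM in vehicle 2 and 15.33 to 27.63 in the other 10 libraries.

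For nucleotide supply, Tk1, the thymidine salvage kinase, was at 78.53 and 47.35 FPKM in vehicle, 75.81, 117.32 and 84.49 in OPG-Fc, 67.16, 81.96 and 91.41 in palbociclib, and 131.11, 100.08 and 141.46 in the combination. Combination tumours lay above all palbociclib tumours, and OPG-Fc 2 fell among them. Rrm2, the cell-cycle regulated subunit of ribonucleotide reductase, was at 50.80 and 100.20 FPKM in vehicle, 46.48, 60.17 and 51.44 in OPG-Fc, 43.77, 34.33 and 66.44 in palbociclib, and 75.47, 54.77 and 42.61 in the combination. Rrm2 groups overlapped, and vehicle 2 was the highest library. Tyms, which makes thymidylate, had the pattern of Tk1 at a lower level: 11.86 to 16.25 FPKM in palbociclib and 17.12 to 21.81 in the combination.

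Among the chromatin genes, Chaf1b, a subunit of the histone chaperone CAF-1, was at 20.95 and 17.30 FPKM in vehicle, 19.60, 25.78 and 22.10 in OPG-Fc, 18.80, 25.93 and 29.61 in palbociclib, and 30.99, 27.88 and 30.45 in the combination. Its combination tumours lay above the vehicle and OPG-Fc tumours and overlapped with palbociclib. Slbp, which binds the stem-loop of histone mRNAs, was at 57.62 and 70.18 FPKM in vehicle, 56.85, 65.96 and 62.10 in OPG-Fc, 56.97, 61.25 and 71.65 in palbociclib, and 72.60, 51.40 and 61.40 in the combination, with full overlap. Dnmt1, the maintenance DNA methyltransferase, was at 38.66 and 57.19 FPKM in vehicle, 41.56, 47.14 and 38.58 in OPG-Fc, 39.73, 27.71 and 41.09 in palbociclib, and 40.30, 30.69 and 23.22 in the combination. Its lowest values were in combination 3, palbociclib 2 and combination 2. Dtl, the substrate receptor that has CDT1 degraded at the fork, was at 13.02 and 13.86 FPKM in vehicle, 13.77, 11.16 and 11.19 in OPG-Fc, 10.53, 9.54 and 14.10 in palbociclib, and 14.57, 11.40 and 8.03 in the combination. Ung, the uracil-DNA glycosylase, was at 9.78 and 13.50 FPKM in vehicle, 9.45, 9.07 and 10.59 in OPG-Fc, 10.36, 11.69 and 11.45 in palbociclib, and 11.81, 9.63 and 11.54 in the combination. Neither Dtl nor Ung separated any of the treated groups.

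The comparison of palbociclib with vehicle asks whether CDK4/6 inhibition alone changed these genes. None of the 34 passed limma's test at an adjusted p under 0.05, and neither did any other gene (0% of the 13074 tested). The estimates were lower with palbociclib for 24 genes and higher for 10, with a median log2 difference of −0.24 on the log2(FPKM + 1) scale, against −0.04 over all tested genes. They ran from −0.61 ± 0.35 (SE) for Rrm2 to 0.81 ± 0.24 for Gins2, and 2 genes had an unadjusted p under 0.05, Gins2 higher and Uhrf1 lower, as did 28.1% of all tested genes. Vehicle 2 set this leaning. Without it the median was 0.01, 18 genes were higher and 16 lower, Rrm2 was at −0.13 ± 0.36 and Gins2 at 0.37 ± 0.18. No replication gene and 0% of all genes then passed, and Rfc3 and Rfc4, both clamp loader subunits, had an unadjusted p under 0.05 (9.68% of all genes), at 0.49 ± 0.21 and 0.48 ± 0.20. With vehicle 2 as the only vehicle library instead, 14 of the 34 passed (12 lower, 2 higher), as did 52% of all tested genes.

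OPG-Fc against vehicle asks for an effect of RANKL blockade on its own. No replication gene passed limma's test, and 0% of all genes did. Of the 34 estimates, 10 were higher and 24 lower with OPG-Fc, with a median of −0.13 against 0.04 over all genes. They ran from −0.44 ± 0.35 for Rrm2 to 0.64 ± 0.24 for Gins2 (adjusted p = 0.471), the only 1 of the 34 with an unadjusted p under 0.05, beside 10.2% of all genes. Without vehicle 2 the signs were the other way round, with 28 higher, 6 lower and a median of 0.12. None of the 34 and 0.00765% of all genes passed in that fit, and 0 of the 34 and 12.5% of all genes had an unadjusted p under 0.05. With vehicle 2 alone as the reference, 7 of the 34 passed (5 lower, 2 higher) beside 40.3% of all genes.

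For the combination against vehicle, none of the 34 and 0% of all tested genes passed. Of the 34, 7 were higher at an unadjusted p under 0.05: Gins2 by 1.18 ± 0.24 (adjusted p = 0.0600), Tk1 by 1.00 ± 0.27, Tyms by 0.67 ± 0.20, Chaf1b by 0.62 ± 0.20, Rfc3 by 0.59 ± 0.18, Gins1, another GINS subunit, by 0.54 ± 0.22 and Cdt1 by 0.51 ± 0.14. Dnmt1 was lower at that level, at −0.60 ± 0.27. Together these were 8 of the 34, beside 29.6% of all tested genes. In all, 14 estimates were higher and 20 lower, with a median of −0.08 against −0.01 over all genes. Without vehicle 2, 25 were higher and 9 lower, the median was 0.15, and 8 of the 34 were higher at an unadjusted p under 0.05, beside 23.1% of all genes in either direction. Dnmt1 was not among them. Gins2 was then at 0.73 ± 0.18 (adjusted p = 0.0857), and none of the 34 passed beside 0.0612% of all genes. With vehicle 2 as the only vehicle library, 13 of the 34 passed (5 higher, 8 lower) beside 50.8% of all genes.

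The combination against palbociclib asks what OPG-Fc added to palbociclib, and it uses no vehicle library except in the shared estimate of variance. The estimates leaned to the combination for 28 of the 34 genes, with a median of 0.19 against 0.02 over all genes. They ran from −0.21 ± 0.24 for Dnmt1 to 0.62 ± 0.24 for Tk1, and Tyms was at 0.50 ± 0.18. None of the 34 and 0% of all genes passed limma's test. The smallest adjusted p among the 34 was 0.730, and Tk1 and Tyms were the 2 genes with an unadjusted p under 0.05, beside 6.75% of all genes. In 6 genes all 3 combination tumours lay above all 3 palbociclib tumours: Cdt1, Mcm5, Gins2, Rfc3, Tyms and Tk1. That pattern was met by 13.7% of all tested genes, and the opposite by 7.04% of them and by 0 of the 34. Without vehicle 2 in the variance estimate, and likewise without vehicle 1, none of the 34 and 0% of all genes passed. The count at an unadjusted p under 0.05 was 8 of the 34 without vehicle 2, all higher, beside 17.7% of all genes. By role, the median difference was 0.38 for nucleotide supply, 0.27 for the fork, 0.10 for both licensing and chromatin copying, and −0.02 for fork-coupled degradation and repair (0 of 2 higher).

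The combination against OPG-Fc asks what palbociclib changed in tumours under RANKL blockade, again with no vehicle library in the difference. None of the 34 passed limma's test, beside 0.0994% of all genes. The list was divided, with 17 estimates higher, 17 lower and a median of 0.00 (−0.07 over all genes). Gins2 was at 0.54 ± 0.21, Gins1 at 0.48 ± 0.20, Rfc3 at 0.47 ± 0.16 and Cdt1 at 0.34 ± 0.13, which were the 4 genes with an unadjusted p under 0.05, beside 15.5% of all genes. At the other end were Dnmt1 at −0.45 ± 0.24 and Pola1 at −0.42 ± 0.25. In 7 genes (Cdt1, Gins1, Gins2, Pcna, Rfc3, Rfc4 and Chaf1b) the combination tumours lay above all OPG-Fc tumours, as in 15.3% of all tested genes. In 0 of the 34 they lay below, as in 23.5% of all tested genes.

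The call for Gins2 depended on the fit. Without vehicle 2 in the variance estimate it passed, at 0.54 ± 0.12 with an adjusted p of 0.0446 in limma, as the only 1 of the 34, beside 4.7% of all genes. In that fit 8 of the 34, all higher, and 31.3% of all genes had an unadjusted p under 0.05. It was also the only 1 of the 34 that passed without vehicle 1, beside 4.77% of all genes. With library weights estimated by limma, which gave the vehicle tumours almost no weight, 8 of the 34 passed beside 26.7% of all genes, all 8 higher in the combination. The weights were also uneven within the compared groups. OPG-Fc 3 had 12.57, against 1.12 and 1.24 for OPG-Fc 1 and 2. Combination 3 had 0.30, against 2.93 and 2.13 for combination 1 and 2. The OPG-Fc mean in that fit is therefore mostly that of 1 tumour. Scaling of the libraries moved the balance of signs: with quantile normalization or median-of-ratios scaling, 21 of the 34 estimates were higher and 13 lower.

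**Figure D2:**
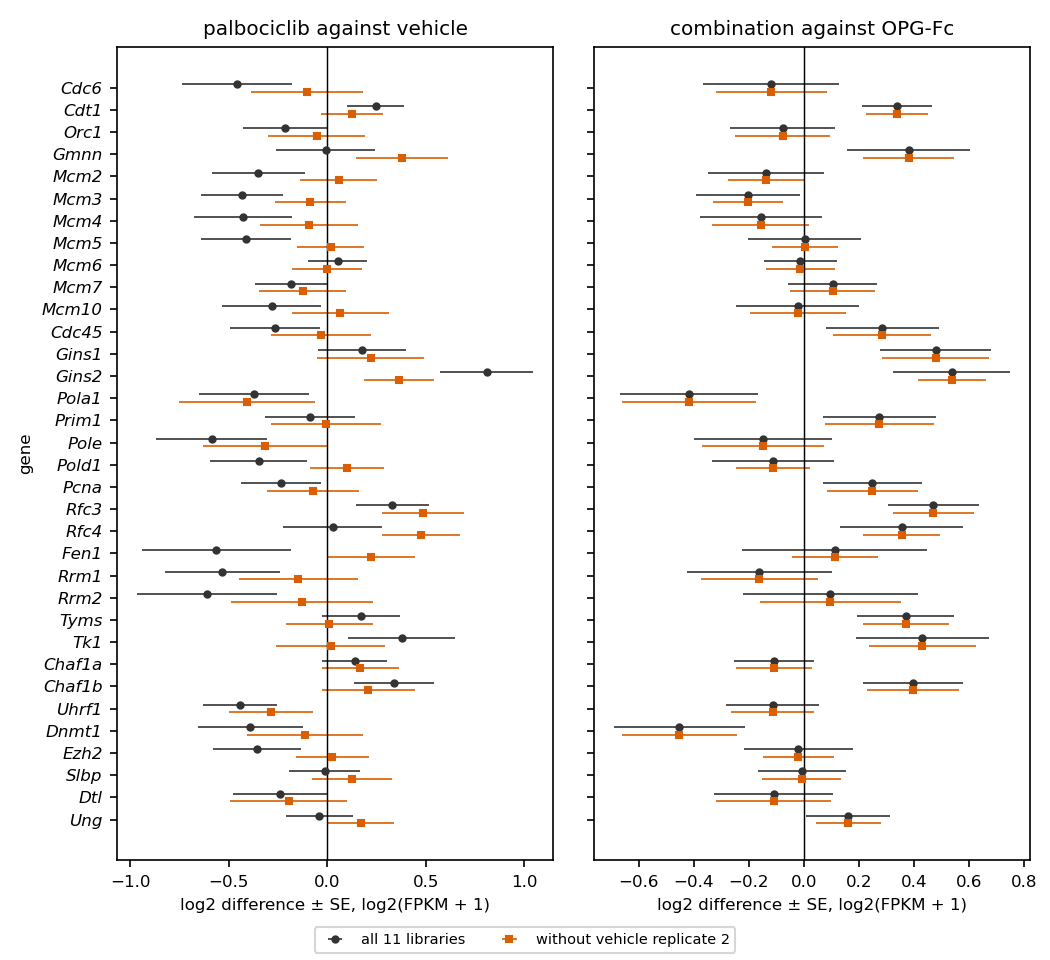
Log2 differences on the log2(FPKM + 1) scale with standard errors for the 34 genes, for palbociclib against vehicle (left) and the combination against OPG-Fc (right), from all 11 libraries (black) and without vehicle replicate 2 (orange). On the left most estimates move up when vehicle 2 is left out, and on the right they stay where they were, with Gins2 highest at 0.54 and Dnmt1 lowest at −0.45.

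Palbociclib averaged over OPG-Fc is the mean of the differences that palbociclib made without and with OPG-Fc. It gave 370 passing genes, 2.83% of all tested, and none of the 34. Gins2 came nearest, at 0.67 ± 0.16 (adjusted p = 0.0541 in limma), followed by Rfc3 at 0.40 ± 0.12 (0.0783), Cdt1 at 0.29 ± 0.10 (0.0881) and Chaf1b at 0.37 ± 0.14 (0.106). Dnmt1 at −0.42 ± 0.18 and Mcm3, a ring subunit, at −0.32 ± 0.14 were lower at an unadjusted p under 0.05. With Gins2, Rfc3, Cdt1 and Chaf1b these were 6 of the 34, beside 33.9% of all genes. In all 15 estimates were higher and 19 lower, with a median of −0.09 against −0.04 over all genes. Without vehicle 2, Gins2 was at 0.45 ± 0.11 (adjusted p = 0.0502), none of the 34 passed beside 3.91% of all genes, and the median was 0.02. Then 5 of the 34, all higher, and 28.5% of all genes had an unadjusted p under 0.05. Dnmt1 (−0.28 ± 0.18) and Mcm3 (−0.14 ± 0.11) were no longer among them. Without vehicle 1, 15 of the 34 passed (4 higher, 11 lower) beside 53% of all genes.

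OPG-Fc averaged over palbociclib gave no passing gene among the 34 and 0% of all genes, and 3 of the 34 were higher at an unadjusted p under 0.05, beside 10.5% of all genes in either direction. These were Tk1 at 0.59 ± 0.18, Gins2 at 0.50 ± 0.16 and Tyms at 0.40 ± 0.13. Without vehicle 2 none of the 34 passed beside 3.46% of all genes, while 7 of the 34, all higher, and 20.4% of all genes had an unadjusted p under 0.05. Without vehicle 1 these same 3 genes passed beside 30.7%. The interaction, which asks whether palbociclib acted differently with OPG-Fc, gave 0 of the 34 and 0% of all genes at an adjusted p under 0.05, and 0 of the 34 at an unadjusted p under 0.05 (5.42% of all genes). Its estimates were positive for 29 genes, with a median of 0.25, and ran from −0.27 ± 0.32 for Gins2 to 0.71 ± 0.48 for Rrm2. Without vehicle 2 the median was −0.01 with 15 positive, and 0 of the 34 and 0% of all genes passed (0 and 4.84% at an unadjusted p under 0.05). Without vehicle 1, 6 of the 34 passed beside 36.7% of all genes.

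The differences followed transcript length, taken as the longest coding transcript of each gene in GENCODE M21. For the combination against OPG-Fc, Spearman's rho between log2 difference and length was −0.75 over the 34 genes and −0.58 over 12747 genes, given as a description since genes share their libraries. The 17 shorter genes (1087 to 3014 bases) had a median of 0.27 with 14 higher, and the 17 longer ones (3031 to 7163 bases) a median of −0.11 with 14 lower. With all genes put in equal groups by length, the group of the shortest (median 927 bases) had a median difference of 0.35 and that of the longest (median 7962 bases) −0.46. Gins1 (1087 bases), Rfc3 (1317) and Tk1 (1440) lie at one end, and Pola1 (5346) and Dnmt1 (5870) at the other. For palbociclib averaged over OPG-Fc, rho was −0.64 over the 34 genes and −0.36 over all.

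When the trend on length was removed from each library, Rfc3 went from 0.47 to 0.19, Pola1 from −0.42 to −0.19 and Dnmt1 from −0.45 to −0.19 in the combination against OPG-Fc. Placed at its longest annotated coding transcript of 3900 bases, Gins2 lay off the trend. Its difference was 0.62 ± 0.21 after the correction (adjusted p = 0.412 in limma). Which Gins2 transcript these tumours expressed was not tested. A shorter length would give a smaller corrected difference, because the trend falls with length. The corrected estimates were higher for 22 genes and lower for 12, with a median of 0.04. With the correction and vehicle 2 left out together, Gins2 was the only 1 of the 34 that passed in this comparison (beside 3.01% of all genes) and in palbociclib averaged over OPG-Fc (beside 3.14%). Its adjusted p was 0.0428 in the former and 0.0456 in the latter. Ribosomal protein transcripts, which are short, took 20.4 to 23.5% of the summed FPKM in tumours without palbociclib and 26.7 to 33.9% in tumours given it. What sets the length trend was not tested.

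The genes with and without an E2F match also differed in length. The 14 with a match had a median transcript of 3417.5 bases and a median log2 difference of −0.09 between combination and OPG-Fc (4 higher, 10 lower). The 15 with a window but no match had 2143 bases and 0.16 (10 higher, 5 lower). Rfc3, with the TTTCGCGC match printed above and a short transcript, was the highest of the former, and Dnmt1 was the lowest.

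**Figure D3:**
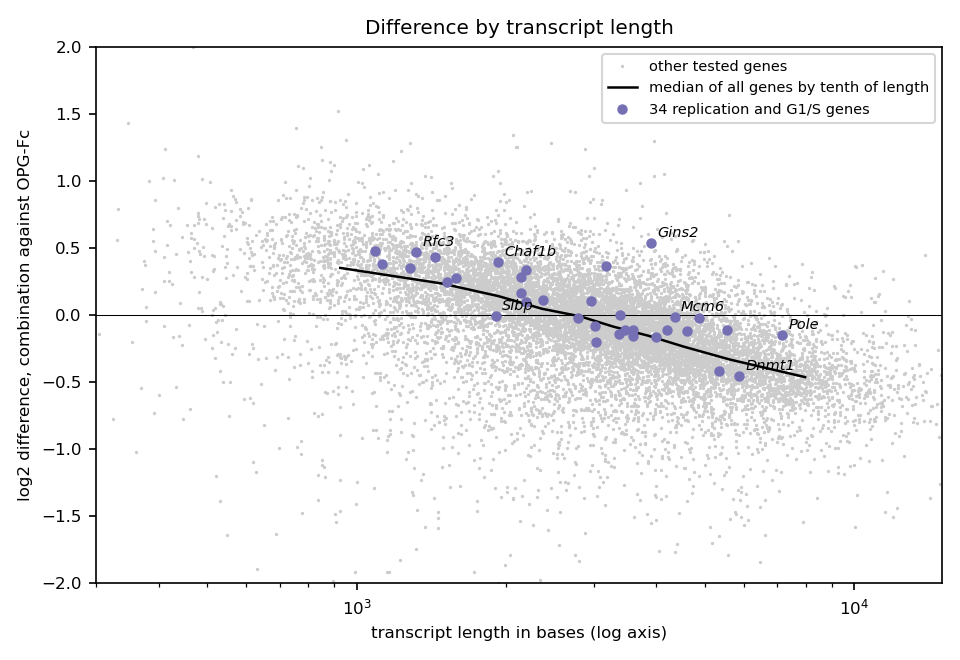
Log2 difference between the combination and OPG-Fc on the log2(FPKM + 1) scale against transcript length in bases (log axis), for all tested genes with a length (grey), their median in equal groups by length (line) and the 34 replication and G1/S genes (purple). Most of the 34 lie along the falling line, from 0.35 to −0.46, and Gins2 lies above it at 0.54.

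The other genes of the pathway gave the same picture of no passing gene. In the fit of all 11 libraries, 0 of 13 other origin and licensing genes, 0 of 22 other fork genes, 0 of 10 other nucleotide synthesis genes and 0 of 23 genes of the E2F and RB axis passed in any of the 8 comparisons. For palbociclib averaged over OPG-Fc, Gins4, a further GINS subunit gene, was at 0.38 ± 0.10 (adjusted p = 0.0608), and Pold2, a subunit of polymerase delta, at 0.47 ± 0.12 (0.0612). Orc6, an origin-binding subunit, was at 0.41 ± 0.12 (0.0759), and Impdh2, which makes guanine nucleotides, at 0.62 ± 0.17 (0.0655). Ticrr, which helps to fire origins, was at −0.44 ± 0.17 (0.110), and Cad, which starts pyrimidine synthesis, at −0.45 ± 0.14 (0.0828). In the E2F and RB axis, Rbl1, which encodes the pocket protein p107, was at −0.49 ± 0.13 (0.0610) and the D-type cyclin gene Ccnd2 at −1.20 ± 0.35 (0.0713). Ccnd2 was at 45.81 FPKM in vehicle 2 and 5.15 to 14.18 FPKM in the other 10 libraries. Without vehicle 2 it was the only gene of these 4 lists that passed in the combination against OPG-Fc, at −0.82 ± 0.19 (adjusted p = 0.0440). E2f1 itself was at 15.50 and 10.36 FPKM in vehicle and 13.13 to 18.74 FPKM in the treated tumours.

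Replication and mitosis genes did not keep the same ratio across groups. The mean log2(FPKM + 1) of the 34 genes minus that of 30 mitosis genes was −0.13 and −0.01 in vehicle, −0.20, −0.32 and −0.19 in OPG-Fc, 0.31, 0.36 and 0.10 in palbociclib, and −0.22, −0.09 and −0.08 in the combination. The palbociclib tumours were the only group above 0, and they did not overlap with the other tumours. With the length trend removed the palbociclib values were 0.16, 0.15 and −0.05, and the other 8 libraries ran from −0.49 to −0.15. The mitosis genes were lower in 2 of the 3 palbociclib tumours, at 4.24 and 4.23 on the log2 scale, with palbociclib 3 at 4.82 and all other libraries at 4.79 to 5.31. Mki67, the proliferation marker among them, was at 24.63 and 79.72 FPKM in vehicle, 38.05, 40.25 and 34.24 in OPG-Fc, 16.44, 13.37 and 27.96 in palbociclib, and 36.14, 21.46 and 16.86 in the combination. For the combination against palbociclib the median difference was 0.56 over the mitosis genes and 0.19 over the replication genes. At an unadjusted p under 0.05, 15 of 30 mitosis genes and 2 of 34 replication genes were higher in the combination, beside 6.75% of all genes in either direction. Without vehicle 2 the counts were 18 of 30 and 8 of 34, beside 17.7% of all genes. None of either list passed after adjustment, and the difference between the lists was not tested.

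**Figure D4:**
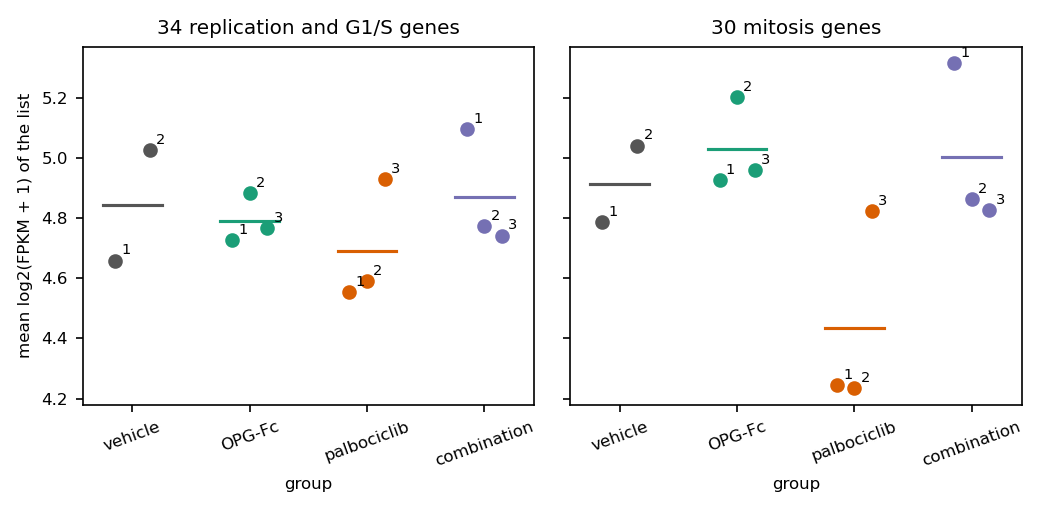
Mean log2(FPKM + 1) per library of the 34 replication and G1/S genes (left) and of 30 mitosis genes (right), with points numbered by replicate and a line at each group's mean. Palbociclib 1 and 2 are lowest in both panels, at 4.55 and 4.59 on the left and at 4.24 and 4.23 on the right, while palbociclib 3 lies among the other groups.

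Markers of other cell types also differed between the groups. The summed level of 8 fibroblast markers was 694.50 to 1290.23 FPKM in vehicle, 1772.73 to 2613.50 in OPG-Fc, 520.90 to 688.74 in palbociclib and 669.90 to 927.95 in the combination. For 8 macrophage markers it was 999.53 to 1838.25, 1521.50 to 1641.67, 655.23 to 858.25 and 957.21 to 2079.52 FPKM in the same order. The 10 keratinocyte and hair follicle markers summed to 1126.70, 153.83 and 983.93 FPKM in palbociclib 1, 2 and 3. Their sum was 4.13 to 114.84 FPKM in vehicle, 125.33 to 132.37 in OPG-Fc and 102.28 to 245.96 in the combination. Palbociclib 2 thus lay within the range of the combination. Most of these sums outside vehicle 2, palbociclib 1 and palbociclib 3 came from 1 marker, Krt14. It was at 147.48 FPKM in palbociclib 2, 111.97 in vehicle 1, 114.20 to 121.48 in OPG-Fc and 97.00 to 197.57 in the combination. Krt1 was at 76.94 and 50.49 FPKM in palbociclib 1 and 3 and at most 4.14 in any other library. None of the fibroblast or macrophage markers was at 0 throughout a group, while 3 of the keratinocyte markers were at 0 in both vehicle libraries and 2 in all OPG-Fc libraries. For 7 endothelial markers the sum was 72.96 to 113.25 FPKM in vehicle, 102.75 to 129.93 in OPG-Fc, 45.62 to 50.32 in palbociclib and 51.18 to 59.00 in the combination. In palbociclib averaged over OPG-Fc, 6 of these 7 fell at an adjusted p under 0.05 in limma, as did 2 of the 8 fibroblast and 2 of the 8 macrophage markers. In that fit, which includes vehicle 2, 2.83% of all tested genes passed in either direction. The median differences were −0.85, −0.82 and −0.69 for the endothelial, fibroblast and macrophage markers. Without vehicle 2 they were −0.71, −0.95 and −0.46. The 7 adipocyte markers summed to 60.98 to 664.55, 505.93 to 1387.27, 55.14 to 76.13 and 82.42 to 417.28 FPKM in the same order of groups. For 7 skeletal muscle markers the sums were 8.69 to 34.47, 62.20 to 363.86, 97.21 to 287.59 and 96.42 to 436.01 FPKM. The part of these cell types in the values of the 34 genes was not tested.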

How the data were processed

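Poly(A) RNA of 11 tumours was sequenced. The authors deposited FPKM values in 1 table of 17181 gene symbols. The submitters' processing notes name the builds GRCm39 and mm39 and the tools RSEM, HISAT and Bowtie2. Versions and roles are not given in the sources used here. No steps of single reads were found in the low values, so depth is unknown.

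Values were taken as log2(FPKM + 1) for the 13074 genes with at least 1 FPKM in at least 2 libraries. All libraries were fitted by group in limma 3.58.1 under R 4.3.3 (eBayes, trend on) for 8 comparisons. The threshold was 0.05 for p adjusted by Benjamini and Hochberg's method across every gene tested. The fit was tested on simulated data. Figures were drawn with matplotlib 3.10.9. Genes and lists were chosen with earlier results of these data known. Of each role, the genes with the smallest and the largest p in palbociclib averaged over OPG-Fc are given in every library, and of each other pathway list the 2 with the smallest p. Rfc3, Pola1, Dnmt1, Mcm5, Fen1, Tyms, Gmnn and Cdc6 were added after their values were seen. Transcript lengths (GENCODE M21, GRCm38) were matched by symbol for 97.5% of tested genes and removed as a spline with 5 degrees of freedom in 1 alternative. Other alternatives varied the pseudocount, filter, scaling, variance prior, library weights, replicate block and libraries.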

Additional observations from a re-analysis of the deposited data

How the results depend on the processing

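Of 197 alternative values of the count of passing genes among the 34, 186 stayed at the reported count, which was 0 in every comparison. Of 197 medians, 183 moved by less than 0.187, the SD of the gene set's mean between replicates. That SD includes the unlike vehicle tumours and is larger than several of the reported medians, so a median could change sign within it. No single gene's value that passed in an alternative had the opposite sign in the fit of all 11 libraries. The alternatives were not compared with each other, and the sign could depend on which vehicle library was kept. For example, Fen1 in OPG-Fc (19.62 to 25.22 FPKM) lay above vehicle 1 (15.33) and below vehicle 2 (47.62). Leaving out each library in turn gave 0 to 14 passing genes for palbociclib against vehicle, 0 to 7 for OPG-Fc against vehicle, 0 to 13 for the combination against vehicle, 0 to 1 for the combination against OPG-Fc, 0 to 15 for palbociclib averaged over OPG-Fc, 0 to 3 for OPG-Fc averaged over palbociclib and 0 to 6 for the interaction. The medians then ran from −0.396 to 0.0143, from −0.344 to 0.116 and from −0.291 to 0.154 for the 3 comparisons with vehicle in that order, and from −0.0108 to 0.465 for the interaction. The highest counts came from leaving out vehicle 1, and the 1 gene in the combination against OPG-Fc (Gins2) also passed without vehicle 2.

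With the length correction and vehicle 2 left out, chosen after seeing the data, the medians were 0.0305 for palbociclib, 0.128 for OPG-Fc and 0.210 for the combination against vehicle and 0.00717 for the interaction, and 1 gene (Gins2) passed in the combination against OPG-Fc and in palbociclib averaged over OPG-Fc. With vehicle 2 and OPG-Fc 2 left out, also chosen after seeing the data, the medians were 0.0143 for palbociclib and 0.154 for the combination against vehicle and 0.0205 for the interaction. Library weights gave 8 passing genes in the combination against OPG-Fc. The weights did not converge fully, and the cause of these calls was not tested. With libraries whose column names share a first number averaged, 261 of 272 single-gene values kept their direction and side of the threshold, and the other 11 changed sign without passing. With the replicate number as a block the median for palbociclib against vehicle was −0.258 and no gene passed in any comparison. Deviations from the group means of same-numbered libraries correlated at −0.41 to 0.53 over 15 pairs, 5 of them over 0.1. Of the 11 libraries, 3 correlated best with a library of their own number. Such deviations depend on each other within a small group, so they cannot show whether the numbers pair the tumours. The number of tumours limits the precision, and depth cannot be judged from FPKM.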
